A study of Mus musculus with 34 samples.

Results

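The signalling route from insulin-like growth factor receptors through PI3K and Akt to mTOR was followed in mESCs of the J1 line, derived from mouse embryos, through 9 genes: the receptor gene Igf1r, the adaptor gene Irs1, the PI3K subunit genes Pik3ca and Pik3r1, the kinase genes Akt1 and Akt2, the inhibitor gene Tsc2, the kinase gene Mtor, and Eras, a Ras gene of embryonic stem cells. The rows were picked by symbol, by a rule that uses no measured value, from a table of 23366 rows, and each of the 9 symbols was found once. The symbols themselves were chosen with earlier results of these data known. RNA depleted of ribosomal RNA was sequenced from cells kept in serum medium on gelatin without LIF, the cytokine that normally maintains mESCs (serum/-LIF), and from cells given 0.5 mg/ml purified Royalactin, a honeybee royal jelly protein, in the same medium (serum/-LIF + Royalactin). There were 2 libraries per condition. All 4 came from the single J1 line, with no genetic change named in the labels, and the labels give passage 40 for each. A figure legend of the study gives a lower passage number for this RNA-seq, and its methods give only a minimum number of passages. The labels speak of triplicate cultures and the series of biological duplicates, but no label ties a library to a culture, so p-values measure the spread between these libraries only.

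In this pathway, a ligand-bound receptor phosphorylates adaptors of the Irs family, which bring PI3K to the membrane, where it makes the lipid that recruits and activates Akt. Akt inhibits the TSC complex, which releases the GTPase Rheb to activate mTOR complex 1, a driver of protein synthesis and cell growth. In mouse embryonic stem cells Eras, a Ras protein held in the active state, feeds into PI3K and is known for its part in their growth and tumour formation.

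Promoter sequences are shown for Irs1, which had the largest difference of the 9 genes, for its paralog Irs2, which was added after its values were seen, and for Eras, which had the largest difference in the other direction. Each is the 250 bases before a transcription start given by RefSeq (promoter table of build GRCm38.p6), located in mm9 by exact match, written 5′ to 3′ on the strand of the gene and in lower case, with each match to CACGTG, the E-box letters, in capitals. The windows lie on the minus strand at chr1:82288015-82288264 for Irs1, chr8:11008930-11009179 for Irs2 and chrX:7505734-7505983 for Eras.
Irs1: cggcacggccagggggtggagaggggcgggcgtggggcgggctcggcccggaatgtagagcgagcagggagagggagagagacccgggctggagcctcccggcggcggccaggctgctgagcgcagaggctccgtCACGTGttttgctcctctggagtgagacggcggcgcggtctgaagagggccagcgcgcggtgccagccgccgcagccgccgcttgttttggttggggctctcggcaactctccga
Irs2: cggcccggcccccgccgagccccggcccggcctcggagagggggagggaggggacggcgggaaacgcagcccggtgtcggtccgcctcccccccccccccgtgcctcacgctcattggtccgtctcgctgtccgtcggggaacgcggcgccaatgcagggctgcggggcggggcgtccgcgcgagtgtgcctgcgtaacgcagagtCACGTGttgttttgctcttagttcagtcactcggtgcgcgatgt
Eras: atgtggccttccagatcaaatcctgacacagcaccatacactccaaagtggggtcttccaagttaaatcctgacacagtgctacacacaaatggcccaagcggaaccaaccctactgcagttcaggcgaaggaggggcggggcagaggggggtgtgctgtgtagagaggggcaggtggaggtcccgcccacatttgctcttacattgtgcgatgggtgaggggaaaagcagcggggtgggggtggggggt

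The CACGTG letters begin 115 bases before the start in Irs1 and 44 bases before it in Irs2. The G and C content of these stretches was 72.4% for Irs1, 72.8% for Irs2 and 58.0% for Eras, where the median of 32851 RefSeq promoter windows was 52.4%. In windows of 300 bases, from 250 before to 50 after the start, 7.15% of the 32851 promoters hold CACGTG on either strand, and Irs1 was the only one of the 9 genes with it, in 1 of the 14 windows that the table gives for them. The rate among windows with a G and C content like that of Irs1 was not computed. The STAT letters TTCNNNGAA, present in 8.30% of all windows, were found for Akt2 and Mtor, and the FoxO letters GTAAACA, present in 3.65%, for Akt1. The octamer ATTTGCAT (1.74% of windows), the Esrrb letters TCAAGGTCA (0.423%) and the Klf letters GGGTGTGG (3.56%) matched in none of the 14 windows. Both strands were searched, and matches are letters in a window, not binding sites.

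The libraries held 14737796 to 17597818 reads on genes, of which the ribosomal RNA precursor Rn45s took 9.08% to 46.6%, the highest share in serum/-LIF replicate 1 and the lowest in serum/-LIF + Royalactin replicate 2. Values are DESeq-normalized counts, and 12993 genes with a mean of at least 10 were tested with limma on log2(normalized count + 1), so fold changes of low genes are understated. At a Benjamini-Hochberg adjusted p under 0.05, 64 of them passed, 43 higher and 21 lower with Royalactin. All 12 pluripotency markers listed were above the minimum, with a summed level of 33163 to 37792 in serum/-LIF and 42640 to 50093 with Royalactin, 5 of them rose (Sox2, Zfp42, Esrrb, Klf4 and Tfcp2l1) and none fell at the adjusted limit. Without overlap, 8 were higher with Royalactin and 2 lower, Tdgf1 (log2 fold change -0.45) and Lin28a (-0.19). Of all tested genes, 19.7% were higher and 18.9% lower without overlap. For several of these markers, stretches of 75 bases along the exons also match elsewhere in the genome, so their counts are uncertain. The share of such stretches was 56.5% for Zfp42, 27.3% for Klf4, 72.7% for Dppa4, 70.6% for Dppa5a, 46.2% for Nanog and 42.9% for Tdgf1. It was 20.0% for Pou5f1, 13.1% for Lin28a, 0.926% for Esrrb and 0% for Sox2 and Utf1. Of 12 fibroblast markers 4 were above the minimum and Postn, Pdgfrb, Fap and S100a4 were at 0 in all libraries, with sums of 269 to 284 and 102 to 162. Among the 4 above the minimum, 1 had a positive and 3 a negative fold change, and 0 passed the adjusted limit. Their median log2 fold change was -0.81, and without overlap 0 were higher and 2 lower with Royalactin. The sums were 346 to 388 and 220.3 to 306 for 8 primitive endoderm markers, 4 of them above the minimum. Of these 4, 2 had positive and 2 negative fold changes, with a median log2 fold change of 0.26, and 0 passed the adjusted limit. Without overlap, 1 of them was higher with Royalactin (Gata4) and 2 were lower, to be read against the same shares of all tested genes. For 8 neural markers, 5 of them above the minimum and Neurog2 at 0 throughout, the sums were 1692 to 2142 and 1210.0 to 1355. Nes alone fell among these 5 (log2 fold change -1.95, limma adjusted p = 0.0166), while the other 4 had positive fold changes that did not pass and the median of the 5 was 0.63. The part of these marker differences in the results below was not tested. In bulk RNA, fewer cells of a type and less RNA per cell cannot be told apart.

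All 9 genes were expressed above the minimum and none passed the adjusted limit, against 0.493% of all tested genes (0.331% higher and 0.162% lower). At an unadjusted p under 0.05 the count was 1, Irs1, against 9.34% of all genes, and edgeR on recovered read counts also called 0 of 9 at an adjusted p under 0.05. The libraries of the 2 conditions did not overlap for Eras, higher with Royalactin, nor for Irs1 and Pik3ca, lower, which is 33.3% of the 9, where 38.6% of all tested genes did not overlap (19.7% higher and 18.9% lower). The median log2 fold change was 0.04 for the 9 genes and -0.01 for all tested genes.

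**Figure D1:**
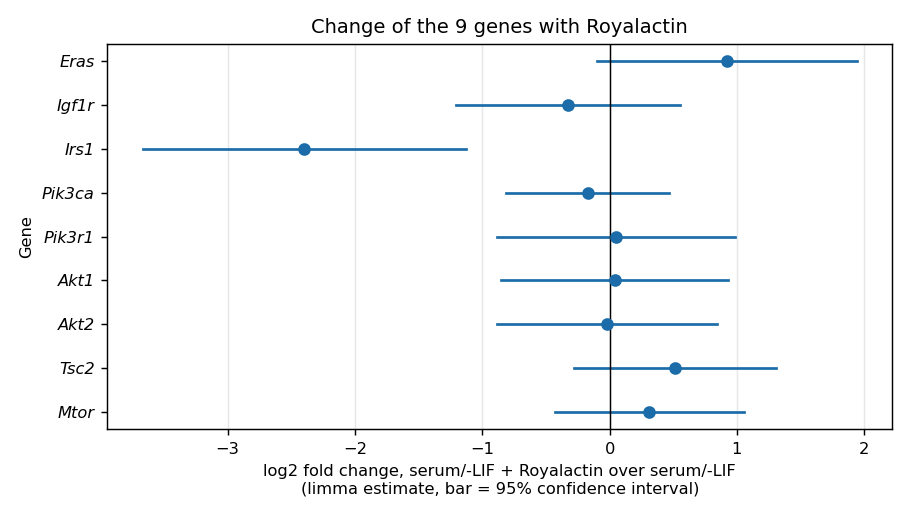
Log2 fold change of each of the 9 genes in serum/-LIF + Royalactin over serum/-LIF, as limma estimates (points) with 95% confidence intervals (bars), 2 libraries per condition. The interval of Irs1 alone lies to 1 side of 0, at -3.67 to -1.13, and that of Eras reaches from -0.10 to 1.94.

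Igf1r encodes the receptor for insulin-like growth factors (mm9 chr7:75097713-75371484, plus strand). Its normalized count was 885 and 406 in the serum/-LIF libraries and 592 and 384 in the Royalactin libraries. The ranges of the conditions overlapped, with the widest gap inside serum/-LIF. The means were 646 ± 339 and 488 ± 147 (SD, n = 2), and the log2 fold change was -0.33 (SE 0.41, 95% confidence interval -1.21 to 0.55, limma adjusted p = 0.855). Insr, the insulin receptor, had a log2 fold change of -0.38 (adjusted p = 0.82, limma). Igf1r made up 78.9% and 74.6% of the summed Igf1r and Insr level per kilobase of exon in serum/-LIF and 78.9% and 76.0% with Royalactin.

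Irs1, the adaptor that links these receptors to PI3K, had the lowest mean level per kilobase of exon of the 9 genes and the largest difference (chr1:82229676-82287991, minus strand). Its normalized count was 326 and 149 in serum/-LIF and 38.2 and 44.1 with Royalactin, from 244, 144, 38 and 64 reads. Both Royalactin libraries lay far below both serum/-LIF libraries, which themselves differed 2.19-fold. The means were 238 ± 125 and 41.1 ± 4.12 (SD, n = 2), and the fitted level was 5.27-fold lower with Royalactin, a log2 fold change of -2.40 (SE 0.59, 95% confidence interval -3.67 to -1.13). Its limma p was 0.00122 before adjustment and 0.127 after Benjamini-Hochberg adjustment over all tested genes, and it therefore missed the limit. With edgeR on recovered reads the log2 fold change was -2.50 and the adjusted p 0.090. In the annotation used here 30.9% of the exon bases of Irs1 overlap Gm9747 on the opposite strand, and the strand setting of the counting is not stated.

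The paralog Irs2 had the same order of libraries between conditions. Its normalized count was 760 and 341 in serum/-LIF and 117 and 134 with Royalactin, with a log2 fold change of -2.01 (SE 0.45, limma adjusted p = 0.0873), also short of the limit. The Royalactin libraries were below both others for each of these adaptor genes. Irs4, another adaptor, overlapped between conditions and had a log2 fold change of 0.44 (SE 0.69, limma adjusted p = 0.891). Of the summed Irs level per kilobase of exon, Irs1 took 15.2% and 15.1% in serum/-LIF and 8.37% and 10.5% with Royalactin. Irs2 took most of it in every library, at 80.5% and 78.4% against 58.0% and 72.6%, and Irs4 4.26% and 6.55% against 33.6% and 16.9%. These shares did not overlap between conditions for any of the 3 genes, and with 2 libraries against 2 they were not tested. They are parts of the same sum and so depend on each other. That sum was 234 and 108 per kilobase in serum/-LIF and 50.0 and 45.9 with Royalactin. Irs4 itself was at 9.99 and 7.07 per kilobase against 16.8 and 7.76.

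Pik3ca encodes a catalytic subunit of PI3K (chr3:32296593-32367408, plus strand). Normalized counts were 1079 and 1035 in serum/-LIF and 968 and 910.0 with Royalactin, with means of 1057 ± 31.2 and 939 ± 40.8 (SD, n = 2). Both Royalactin libraries were lower and the replicates lay close together, but the log2 fold change was only -0.17 (SE 0.30, 95% confidence interval -0.81 to 0.47, limma adjusted p = 0.901). Among the catalytic genes per kilobase of exon, Pik3ca took 51.5% and 56.3% of the sum in serum/-LIF and 40.8% and 44.4% with Royalactin. Pik3cd, a catalytic subunit best known from leukocytes, took 6.75% and 5.46% against 14.1% and 13.8%. Its log2 fold change was 1.36 (SE 0.50, limma adjusted p = 0.378). The rest of the sum was all Pik3cb, at 41.8% and 38.2% against 45.0% and 41.8%, with Pik3cg at 0 in every library.

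**Figure D2:**
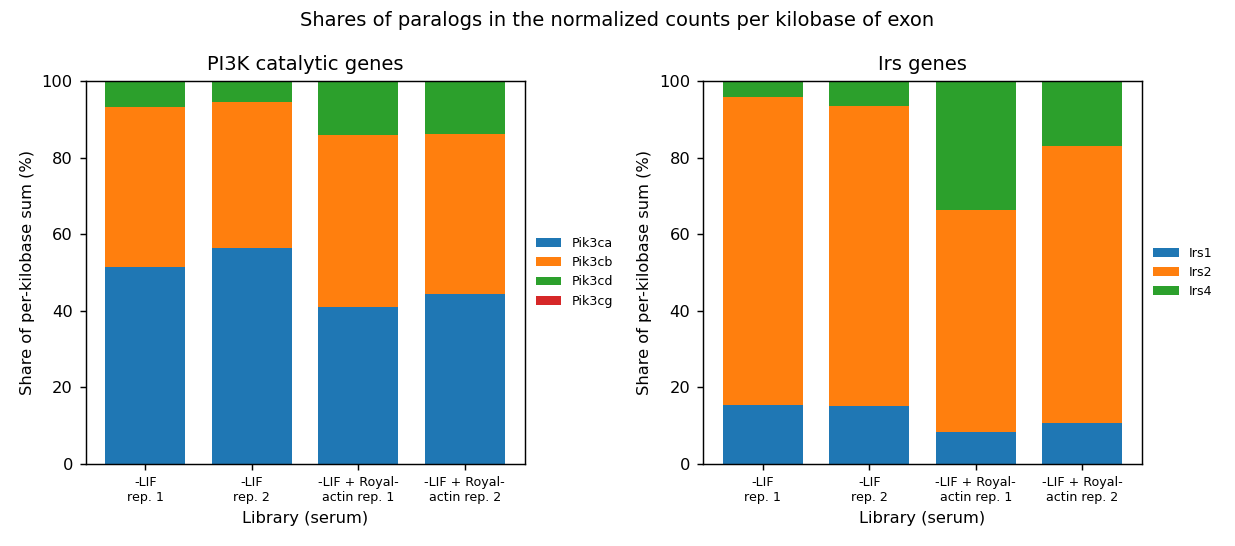
Share of each paralog in the summed normalized count per kilobase of exon (vertical axis, percent) in each of the 4 libraries, for the PI3K catalytic and the Irs genes. Pik3ca takes 51.5% and 56.3% in serum/-LIF and 40.8% and 44.4% with Royalactin, and Irs1 takes 15.2% and 15.1% against 8.37% and 10.5%.

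Pik3r1 encodes a regulatory subunit that stabilizes the catalytic one (chr13:102450716-102538172, minus strand). The libraries gave normalized counts of 199 and 308 in serum/-LIF and 335 and 197 with Royalactin. The conditions covered nearly the same range, with means of 254 ± 77.2 and 266 ± 97.6 (SD, n = 2). The log2 fold change was 0.05 (SE 0.44, 95% confidence interval -0.89 to 0.99, limma adjusted p = 0.983). Another regulatory gene, Pik3r5, had 36 and 54 reads in serum/-LIF and 0 in both Royalactin libraries, at least 20.5-fold lower against a floor of 3 reads per library (limma adjusted p = 0.274).

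Akt1 encodes the widely expressed form of the kinase (chr12:113892032-113913095, minus strand). Its normalized count was 369 and 203 in serum/-LIF and 281 and 282 with Royalactin. The Royalactin libraries were nearly equal and lay between the serum/-LIF libraries, and the log2 fold change was 0.04 (SE 0.42, 95% confidence interval -0.86 to 0.93, limma adjusted p = 0.987). Akt2, the form best known from insulin-responsive tissues (chr7:28376571-28425845, plus strand), had 515 and 262 in serum/-LIF and 352 and 374 with Royalactin. It showed the same arrangement, with a log2 fold change of -0.02 (SE 0.40, 95% confidence interval -0.88 to 0.85, limma adjusted p = 0.994). Of 229 stretches of 75 bases taken along the Akt2 exons, 32.8% also match elsewhere in the genome, so its count is uncertain.

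Tsc2 encodes tuberin, the part of the TSC complex that inactivates Rheb (chr17:24732882-24769574, minus strand). Its normalized count was 713 and 367 in serum/-LIF and 769 and 697 with Royalactin. The ranges overlapped, since serum/-LIF replicate 1 lay above the lower Royalactin library. The means were 540 ± 244 and 733 ± 51.0 (SD, n = 2), and the log2 fold change was 0.52 (SE 0.37, 95% confidence interval -0.28 to 1.31, limma adjusted p = 0.726). Of its exon bases, 9.11% overlap Pkd1 on the opposite strand. Mtor, the kinase at the centre of both mTOR complexes (chr4:147822720-147931792, plus strand), had 1210.3 and 651 in serum/-LIF and 1193 and 1019 with Royalactin. Here too serum/-LIF replicate 2 stood below the other libraries, and the log2 fold change was 0.31 (SE 0.35, 95% confidence interval -0.43 to 1.06, limma adjusted p = 0.835).

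Eras had the highest mean level per kilobase of exon of the 9 genes and the largest positive fold change (chrX:7501402-7505733, minus strand). Its normalized count was 103 and 243 in serum/-LIF and 299 and 304 with Royalactin, from 77, 235, 297 and 441 reads. Both values with Royalactin exceeded both values without it, and the serum/-LIF libraries differed more between themselves than the higher of them did from Royalactin. The means were 173 ± 99.2 and 301 ± 3.41 (SD, n = 2), and the log2 fold change was 0.92 (SE 0.47, 95% confidence interval -0.10 to 1.94, limma adjusted p = 0.599). Its unadjusted limma p was 0.0722. The fold change was 0.31 without serum/-LIF replicate 1 and 1.54 without serum/-LIF replicate 2. In the annotation 12.5% of its exon bases overlap Pcsk1n on the opposite strand.

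Of the other Ras genes, Nras had a log2 fold change of 0.12 (adjusted p = 0.934, limma) and Hras1 of -0.14 (adjusted p = 0.934, limma). Neither value nor that of Eras passed the limit, and the difference between these fold changes was not tested.

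Among the 5 tested genes with the centred log2 profile nearest to that of Eras over the 4 libraries were B930041F14Rik, Tmem37, Poc1a and Tmem40, with a root mean square difference of 0.0572, 0.0630, 0.0852 and 0.0951 on the log2 scale, among 12992 genes compared. With 4 libraries this likeness is a description only.

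Ordered by mean level per kilobase of exon over the 4 libraries, Eras (220.2) was followed by Igf1r (126.7), Pik3ca (110.1), Mtor (100.7), Tsc2 (100.3), Akt1 (69.2), Akt2 (52.7), Pik3r1 (35.1) and Irs1 (15.2). The ranges of every pair of neighbours in this order overlapped, so the order between neighbours is not resolved. Eras itself ran from 95.6 to 282 and Irs1 from 4.18 to 35.7. Exon lengths come from the annotation used here and shift the levels where it is incomplete.

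**Figure D3:**
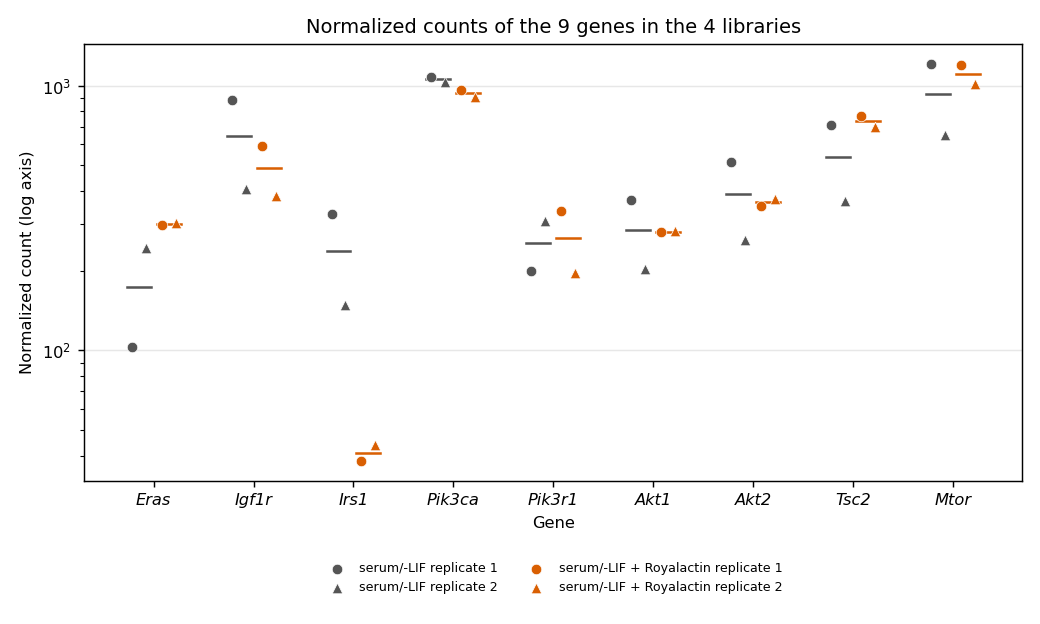
Normalized counts (vertical log axis) of the 9 genes in each of the 4 libraries, with points for the 2 serum/-LIF and the 2 serum/-LIF + Royalactin libraries and a bar at the mean of each condition. Serum/-LIF replicate 1 is the higher of its pair in 7 of the 9 genes, and the conditions are separate for Eras, Irs1 and Pik3ca.

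The serum/-LIF libraries differed from each other in most of these genes. Replicate 1 was higher in 7 of the 9, the exceptions being Eras and Pik3r1, and at least 1.5-fold higher in 6 of them (Akt1, Akt2, Tsc2, Mtor, Igf1r and Irs1), where 51.4% and 27.0% of all tested genes were. Its ratio to replicate 2 ran from 1.82 for Akt1 to 2.19 for Irs1 among these 6, and was 0.423 for Eras. Replicate 1 was also the library with 46.6% of its reads on Rn45s, against 21.6% in replicate 2, and the part of this in the ratios was not tested. Leaving out a serum/-LIF library turned the direction of Akt2 (0.47) and Igf1r (0.23) without replicate 1, of Akt1 (-0.39) and Mtor (-0.13) without replicate 2, and of Pik3r1 (-0.26) without replicate 1, as log2 fold changes. The fold change of Tsc2 was 0.99 without replicate 1 and 0.04 without replicate 2.

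Across 14 lists of pathway genes with the 9 included, 141 of 157 genes were tested, and the other 16 had at most 18 reads in any library. Of the 141, 2 rose and 1 fell at a limma adjusted p under 0.05 (2.13%, against 0.493% of all tested genes), 60 did not overlap between conditions (42.6% against 38.6%), and the median log2 fold change was -0.02. The lists were chosen with earlier results of these data known, so these shares are descriptions only. The gene that fell was Igfbp3, a secreted protein that binds insulin-like growth factors, at 901 and 829 in serum/-LIF and 218 and 223 with Royalactin (log2 fold change -1.97, SE 0.34, limma adjusted p = 0.021). Those that rose were Inpp5d, a lipid phosphatase that removes the product of PI3K, at 143 and 125 against 518 and 553 (1.99, SE 0.39, limma adjusted p = 0.040), and Tcl1, a coactivator of Akt, at 13.4 and 14.5 against 219 and 198 (3.81, SE 0.68, limma adjusted p = 0.0261). In each of these genes the libraries of a condition lay close together and the conditions were far apart. All 3 lost the call in fits without serum/-LIF replicate 1 or without either Royalactin library, and Inpp5d also without serum/-LIF replicate 2. Inpp5d lost it further at a pseudocount of 0.1, with all genes above 0, under both other scalings and without the variance trend (limma adjusted p from 0.0528 to 0.248), Tcl1 at a pseudocount of 0.1, with all genes above 0 and without the trend (0.0602 to 0.114), and Igfbp3 without the trend (0.248). Over all these fits the log2 fold change ran from 1.90 to 2.09 for Inpp5d, from 3.49 to 3.91 for Tcl1 and from -2.03 to -1.91 for Igfbp3. Without one library the calls over all genes went from 64 to 0 and 60 (serum/-LIF replicates 1 and 2) and to 4 and 0 (Royalactin replicates 1 and 2).

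On the ligand and receptor side, 4 of 11 ligand and binding protein genes were tested, with 0 higher and 1 lower (Igfbp3) and a median log2 fold change of -1.18. Of 11 tested receptor and adaptor genes 0 passed, with a median of -0.38. Among genes of that list without overlap, the most negative fold change was that of Irs1 and the most positive that of Gab1, a docking protein, at 1698 and 1095 against 2674 and 2093 (log2 fold change 0.79, limma adjusted p = 0.429). In the class I PI3K list 0 of 7 passed (median 0.18), in the class II and III list 0 of 4 (median 0.46), and among Ras genes 0 of 7 (median -0.14). The ends without overlap were Pik3c3 (0.49, limma adjusted p = 0.685) and Pik3c2a (-0.42, limma adjusted p = 0.72) in the class II and III list, and Rras (-1.02, limma adjusted p = 0.66) on the negative side of the Ras list.

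Of 8 tested phosphatase genes, 1 rose (Inpp5d) and none fell, with a median log2 fold change of -0.14, and the most negative without overlap was Inpp4a (-0.28, limma adjusted p = 0.919). Of 11 genes for Akt kinases and their regulators, 1 rose (Tcl1) and none fell (median -0.25). Sgk1, a kinase related to Akt, was at 753 and 618 against 1555 and 1963 (log2 fold change 1.36, limma adjusted p = 0.0877).

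**Figure D4:**
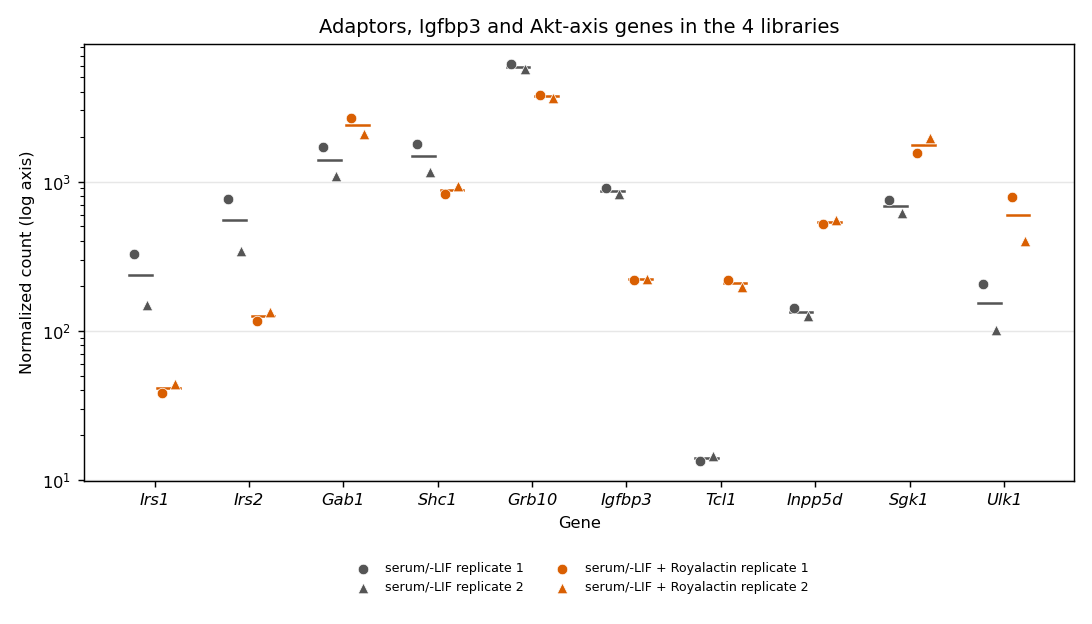
Normalized counts (vertical log axis) of adaptor genes, Igfbp3 and genes of the Akt axis in each of the 4 libraries, with points for single libraries and a bar at the mean of each condition. Irs1 lies at 149 to 326 without Royalactin and at 38.2 to 44.1 with it, Irs2 at 341 to 760 and 117 to 134, and Tcl1 at 13.4 to 14.5 and 198 to 219.

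Downstream, 0 of 5 TSC and Rheb genes (median log2 fold change 0.52), 0 of 12 mTOR complex genes (median 0.22) and 0 of 13 mTOR complex 1 substrate genes (median -0.09) passed. Rptor and Rictor, which define the 2 mTOR complexes, had log2 fold changes of 0.41 and 0.17 (limma adjusted p = 0.81 and 0.899). On the negative side, the largest differences without overlap were those of Rhebl1 in the TSC and Rheb list (-0.57, limma adjusted p = 0.706), Prr5l in the mTOR complex list (-1.15, limma adjusted p = 0.655) and Eif4ebp3 in the substrate list (-1.20, limma adjusted p = 0.68). On the positive side they were those of Tbc1d7 (0.63, limma adjusted p = 0.766), Tti2 (0.59, limma adjusted p = 0.734) and Tfeb. In the annotation 67.3% of the exon bases of Eif4ebp3 overlap Ankhd1 on the same strand, so its count is uncertain. Ulk1, the autophagy kinase inhibited by mTOR complex 1, was at 206 and 100.4 against 792 and 403 (1.97, limma adjusted p = 0.110), with 15.0% of its stretches of sequence also found elsewhere in the genome. Tfeb, a transcription factor held in the cytoplasm by mTOR complex 1, had 25, 0, 46 and 138 reads and a fold change against a library at 0 depends on the pseudocount (limma adjusted p = 0.471). Of 25 genes for amino acid sensing at the lysosome 0 passed (median 0.09), with Flcn at 341 and 138 against 515 and 567 (1.31, limma adjusted p = 0.318) and Rraga, a GTPase that recruits mTOR complex 1, at 766 and 573 against 363 and 271 (-1.08, limma adjusted p = 0.306).

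**Figure D5:**
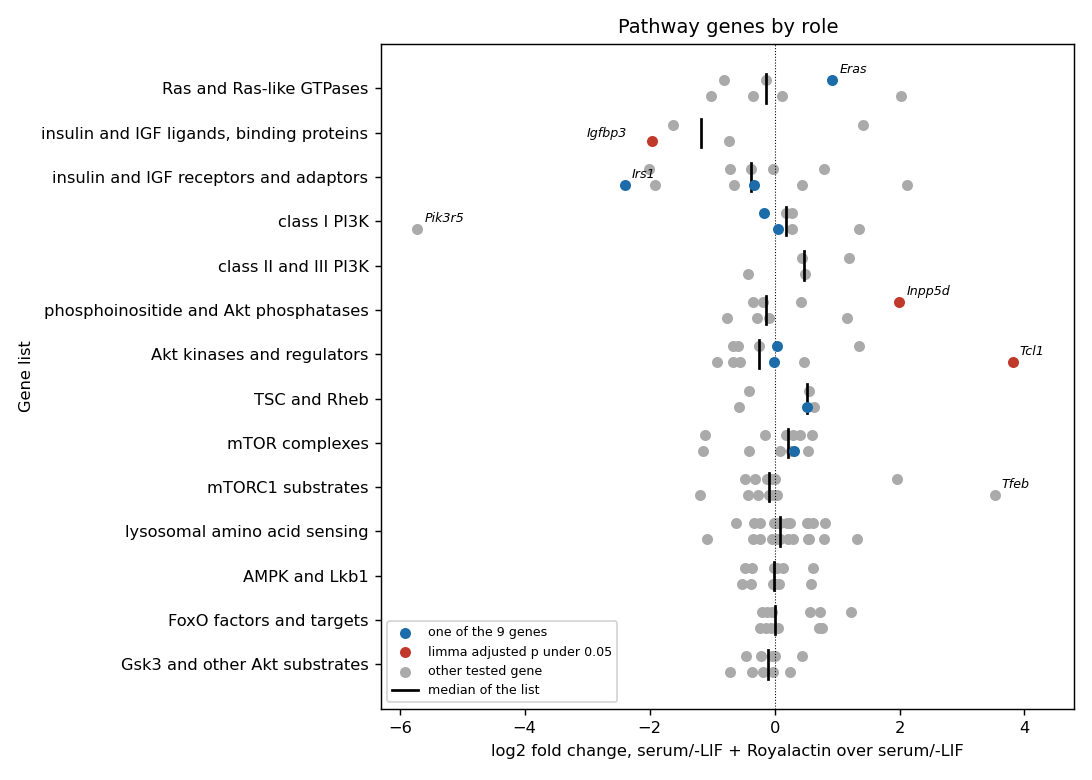
Log2 fold change of each tested pathway gene (horizontal axis, serum/-LIF + Royalactin over serum/-LIF) by list, with the list median as a black line, the 9 genes in blue and genes with a limma adjusted p under 0.05 in red. The 3 red points are Igfbp3, Inpp5d and Tcl1, and the far left point, Pik3r5, has 0 reads in both Royalactin libraries, so its position depends on the pseudocount.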

How the data were processed

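RNA-seq of 2 serum/-LIF and 2 serum/-LIF + Royalactin libraries of J1 mESCs was used, with groups and replicate numbers taken from the sample labels. Other conditions and assays of the study were left out. Alignment by the authors was with TopHat to build mm9, counting per gene with HTSeq-count, and the deposited values are DESeq-normalized counts, a signal proportional to reads. The annotation and strand setting are not given in the sources used here. All 4 value columns were mapped (0 unmapped). Dividing by the step of each library (0.69 to 1.34) gave whole reads for 100% of values to within 0.01 of a read. The step of Royalactin replicate 1, 1.01, is too near 1 to be decided by an automatic test.

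The rule for the 9 genes uses symbols only, but those symbols, and the pathway lists, were chosen with earlier results of these data known. Genes with a mean of at least 10 were tested on log2(value + 1) with limma 3.58.1 in R 4.3.3 (two-sided, variance trend, Benjamini-Hochberg over all tested genes). In each list, genes past an adjusted p of 0.05 and the largest rise and fall among genes without overlap were eligible to be named, besides the 9 genes and their paralogs. Sgk1, Ulk1, Rptor and Rictor were named after their values were seen. Some genes that the rule names are not reported here. Other pseudocounts (0.1 and 5), filters, scalings, a replicate block, no trend, each library left out and, chosen after seeing the data, edgeR 4.0.16 on recovered reads were tried. The pipeline was tested on simulated data. Positions and exon lengths come from GENCODE M1 on NCBIM37, the same assembly as mm9. Stretches of 75 bases every 25 bases of exon were placed with minimap2 2.31-r1302. Depth was 7878527 to 15999458 reads without Rn45s, and floors of 3 reads cover counting error only.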

Additional observations from a re-analysis of the deposited data

How the results depend on the processing

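Over the alternatives, 107 of 117 recomputed fold changes of the 9 genes kept their direction and side of the limit, 9 turned direction and 1 passed it. Genes called over the whole table, 64 as reported, numbered 32 at a pseudocount of 0.1, 34 with all genes above 0, 99 with a mean of at least 50, 55 with edgeR, 0 without the variance trend (1135 at an unadjusted limma p under 0.05) and 0 to 60 with a library left out. Pathway genes called higher, 2 as reported, numbered 0 at a pseudocount of 0.1, with all genes above 0 and without the trend, 1 under upper-quartile scaling and under scaling to the total without Rn45s, 4 with a mean of at least 50, and 0 to 1 with a library left out. Those called lower, 1 as reported, numbered 2 at a pseudocount of 5 and with a mean of at least 50, 0 without the trend and 0 to 2 with a library left out. The log2 fold change turned for Akt1 with edgeR (-0.0022) and for Akt2 under scaling to the total without Rn45s (0.0375). With a library left out it ran from -0.33 to 0.43 for Pik3r1, -0.39 to 0.47 for Akt1, -0.50 to 0.47 for Akt2, -0.13 to 0.76 for Mtor, -0.89 to 0.23 for Igf1r, -0.77 to 0.0067 for Insr and -0.11 to 0.98 for Irs4, and for Irs1, without a turn, from -2.96 to -1.84 (limma adjusted p from 0.0761 to 0.940). Without Royalactin replicate 1, Pik3r1 was at -0.33, Akt2 at 0.03 and Irs4 at -0.11. Irs2, not called as reported, passed with a mean of at least 50 (limma adjusted p = 0.0319), at a pseudocount of 5 (0.0474) and without serum/-LIF replicate 2 (0.0297). With the longest transcript as length, the Pik3cd share differed by 8.83 percentage points in place of 7.85. Fewer libraries or another set of tested genes enter some of these fits, and otherwise the cause was not tested.

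In a fit blocked on replicate number, 391 genes passed, among them 6 pathway genes higher and 3 lower and 1 of the 9 genes, Irs1 (log2 fold change -2.40, limma adjusted p = 0.00548). Irs2 also passed in that fit (log2 fold change -2.01, limma adjusted p = 0.000261). Deviations of same-numbered libraries from their group means correlated at 0.0851 over 12993 genes, so the numbers were not shown to pair the libraries.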

Other observations

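Of 12 tested genes for FoxO factors, which Akt inhibits, and their targets, 0 passed the adjusted limit, and the median log2 fold change was 0.01. Txnip, an inhibitor of thioredoxin and of glucose uptake, had the most positive fold change in that list among genes without overlap, at 1016 and 665 in serum/-LIF and 1887 and 1969 with Royalactin (1.23, limma adjusted p = 0.142), and Foxo4 the most negative (-0.13, limma adjusted p = 0.933). Of 12 genes for AMPK and its activating kinase 0 passed (median -0.01), and Stk11, which encodes that kinase, had a log2 fold change of 0.61 (adjusted p = 0.679, limma), with Stradb at the other end (-0.52, limma adjusted p = 0.843). Of 10 genes for Gsk3 and other Akt substrates 0 passed (median -0.11), with Casp9 (0.44, limma adjusted p = 0.84) and Tbc1d4 (-0.72, limma adjusted p = 0.718) at the ends without overlap.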
